A study of Homo sapiens with 6 samples.

Results

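Lysosomes are acidic compartments in which soluble hydrolases break down proteins, sugars, sulfated glycans and lipids. Their membrane is lined with heavily glycosylated proteins such as LAMP1, and their low pH is kept by the V-ATPase, a rotary pump whose cytosolic V1 sector burns ATP and whose membrane V0 sector moves protons. TFEB, TFE3 and MITF are related transcription factors that bind E-box elements in the promoters of many lysosomal genes. Macrolides such as ISP-I (isovalerylspiramycin I) are weak bases, a class of compounds known to collect in acidic compartments.

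The genes described here are the lysosomal enzymes, their partners and membrane proteins, the 3 transcription factors, and the subunits and accessory proteins of the V-ATPase. They were taken by symbol: 41 lysosomal genes named one by one, and every symbol beginning with ATP6V or ATP6AP. This gave 63 of the 16953 genes of the authors' deposited table, namely 39 named genes (28 hydrolases, PSAP and GRN, 6 membrane proteins and 3 transcription factors) and 24 pump genes. GALC and NEU1 were not analysed here. ATP6V1FNB, which the prefix also took, is named as a neighbour of ATP6V1F and is not a pump subunit.

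The RNA came from 6 samples of wild-type H1048, an established small cell lung cancer line: 3 exposed to ISP-I at 10 µM and 3 to its solvent DMSO, all for 48 h, all described as biological replicates of this single line. The authors' deposited table compares 3 libraries, D to F, with 3 others, A to C. No label used here says which set received ISP-I, so every difference below means D to F over A to C. For the same reason values of single libraries, depth and expression levels were not used, and each result is the log2 fold change and adjusted p of the authors' deposited table, which gives no standard error. A call, in either direction, needs an adjusted p under 0.05. Of the whole table, 57.6% of the 15976 genes with an adjusted p were called, 29.7% higher and 27.9% lower, with a median log2 fold change of 0.05. At least 2-fold, 12.8% were higher and 11.3% lower. Of 5 tuft cell genes, the factor POU2F3, which marks this line's subtype, was called lower (-1.71), as was AVIL (-2.31). GFI1B was called higher (0.54), and TRPM5 and CHAT were not called.

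Promoter sequence comes first, because it shows the element through which TFEB and its relatives are known to act. RefSeq windows on GRCh38.p14, from 250 bases before to 50 bases after a transcript start, were matched by symbol to 44 of the 63 genes; 19, among them PSAP, ASAH1, CTSB and LAMP2, had no entry and are only named. The E-box core CACGTG, which reads the same on both strands, was found in 12 of the 44 (27.3%), against 11.5% of the 12963 genes of the table with a window and 7.26% of all 35116 windows. The longer palindrome TCACGTGA, which contains the core, was found in 6 of the 44 (13.6%), against 1.86% of genes and 0.98% of windows. Some genes have several windows (10 of the 44), which gives them more letters to match. A match describes these letters and does not show binding.

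The 3 windows below are shown for the hydrolase CTSA and the membrane protein LAMP1, both lower, and for the pump subunit gene ATP6V0B, which was higher. Capitals mark each E-box core. LAMP1 lies on the plus strand at chr13:113296989-113297288 and has 6 cores, CTSA on the plus strand at chr20:45891085-45891384 has 2, and ATP6V0B on the plus strand at chr1:43974710-43975009 has 2.
LAMP1: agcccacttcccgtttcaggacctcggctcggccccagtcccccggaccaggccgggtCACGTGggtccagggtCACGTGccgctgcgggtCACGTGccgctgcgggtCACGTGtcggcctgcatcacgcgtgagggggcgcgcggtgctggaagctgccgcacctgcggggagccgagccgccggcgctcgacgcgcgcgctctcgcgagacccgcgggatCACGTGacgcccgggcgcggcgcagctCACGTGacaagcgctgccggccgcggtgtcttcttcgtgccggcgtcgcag
CTSA: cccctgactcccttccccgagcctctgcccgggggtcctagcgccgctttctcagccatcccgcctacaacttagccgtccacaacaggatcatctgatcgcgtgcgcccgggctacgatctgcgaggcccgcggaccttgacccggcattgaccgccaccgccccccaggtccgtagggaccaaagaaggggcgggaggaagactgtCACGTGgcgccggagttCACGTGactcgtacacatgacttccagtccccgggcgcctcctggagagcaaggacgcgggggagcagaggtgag
ATP6V0B: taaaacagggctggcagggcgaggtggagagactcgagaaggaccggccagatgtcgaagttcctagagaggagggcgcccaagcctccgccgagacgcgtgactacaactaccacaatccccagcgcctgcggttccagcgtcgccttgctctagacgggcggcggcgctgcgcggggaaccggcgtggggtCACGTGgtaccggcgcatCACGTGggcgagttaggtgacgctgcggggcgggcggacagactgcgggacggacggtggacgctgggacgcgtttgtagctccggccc

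Shorter stretches show the cores of the glycogen-degrading enzyme GAA and the calcium channel MCOLN1, both lower, and of the subunit genes ATP6V1G1 and ATP6V0D1, neither of which was called. All 6 hold the longer palindrome. They lie at chr17:80101493-80101522 and chr17:80101538-80101567 for GAA, chr19:7522571-7522600 and chr19:7522598-7522627 for MCOLN1, and chr9:114587699-114587728 for ATP6V1G1, all on the plus strand, and at chr16:67481199-67481228 on the minus strand for ATP6V0D1.
GAA, first core: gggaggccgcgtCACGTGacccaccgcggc
GAA, second core: gctcccgccggtCACGTGacccgcctctgc
MCOLN1, first core: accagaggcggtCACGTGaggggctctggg
MCOLN1, second core: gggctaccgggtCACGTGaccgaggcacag
ATP6V1G1: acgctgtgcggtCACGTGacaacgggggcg
ATP6V0D1: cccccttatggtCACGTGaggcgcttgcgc

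Of the 12 genes with a core, 8 were lower, 2 higher (ATP6V0B and CD63) and 2 not called. Genes that carry the core therefore moved both ways. Across the table, 32.7% of the 1442 tested genes with a core were higher and 29.5% lower, a more even split than among the 12. Among the 10867 tested genes with a window but no core the shares were 30.4% and 28.7%. The core was found in 5 of 20 hydrolase genes with a window and in 4 of 15 pump genes.

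**Figure D1:**
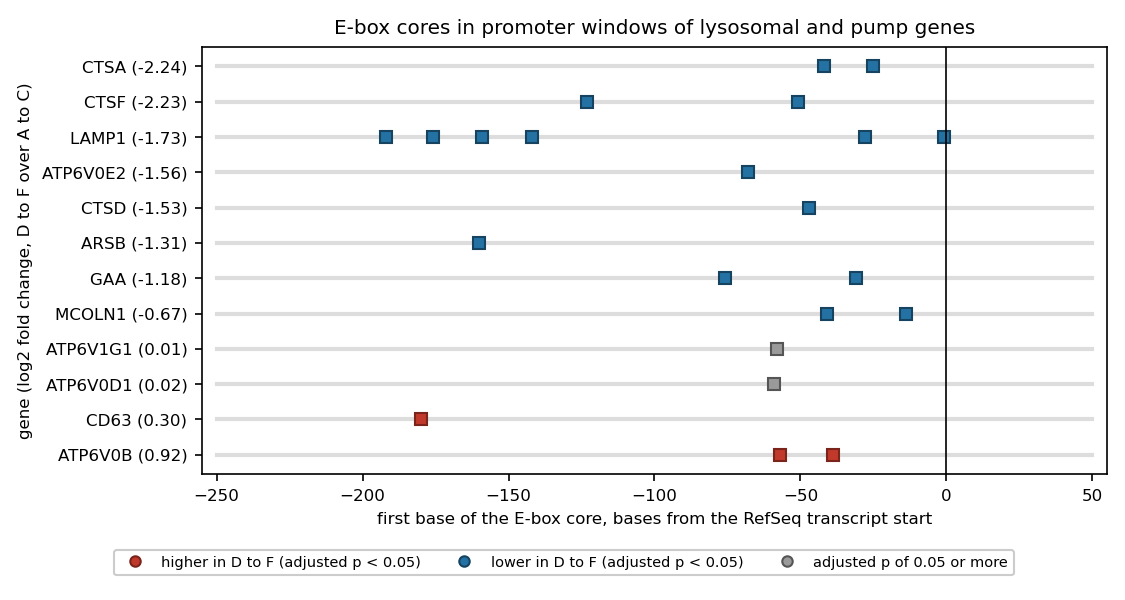
E-box cores in the promoter windows of the 12 genes that hold at least 1. The horizontal axis gives the first base of each core in bases from the RefSeq transcript start, each row is a gene with its log2 fold change (D to F over A to C), and colour gives the call. Of the genes with a core, 8 are lower, and LAMP1 has the most cores (6).

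A second element, the M-box TCATGTG, to which MITF is known to bind, was searched on both strands after the fold changes had been seen. A site that matches it cannot match the E-box core. It was found in 8 of the 44 genes (18.2%), against 3.07% of genes of the table with a window and 2.92% of windows. These were GPNMB and CD63, which were higher, GRN, CTSA, PPT1, SCARB2 and TPP1, which were lower, and ATP6V0C, which was not called. Across the table, 25.3% of the 371 tested genes with an M-box were higher and 30.7% lower. Among the 11938 tested genes with a window but no M-box the shares were 30.8% and 28.7%. GPNMB, the highest of the genes described here, GRN, the lowest, and TPP1 each held 2 matches. Those of GPNMB and GRN are all on the strand opposite to the gene and so written as the reverse complement. The GPNMB stretches lie at chr7:23246640-23246670 and chr7:23246701-23246731, and those of GRN at chr17:44345068-44345098 and chr17:44345084-44345114, all on the plus strand, with the match in capitals; the GRN stretches overlap each other.
GPNMB, first: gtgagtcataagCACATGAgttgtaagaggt
GPNMB, second: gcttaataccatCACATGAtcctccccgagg
GRN, first: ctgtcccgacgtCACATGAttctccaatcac
GRN, second: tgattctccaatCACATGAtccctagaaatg

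The hydrolases were mostly lower in libraries D to F. By the authors' deposited table, 20 of 28 were lower, 2 higher and 6 not called, against 27.9% of all tested genes lower and 29.7% higher. The fall was also large: 13 of the 28 were lower at least 2-fold, against 11.3% of all tested genes. Their median log2 fold change was -1.004, and their values ran from -2.31 to 0.71. In RNA from whole cultures, fewer cells of one kind and less RNA per cell cannot be told apart.

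Proteases cut proteins inside the lysosome, and 7 of 10 were lower with none higher, against 27.9% and 29.7% of all tested genes. CTSA, a carboxypeptidase that also protects other lysosomal enzymes, was 4.72-fold lower (-2.24 on the log2 scale of the authors' deposited table, adjusted p = 1.93e-77; chromosome 20, from 45890144). The cysteine protease CTSF (-2.23, adjusted p = 1.65e-53) was close to it. CTSD, the main aspartic protease, followed at -1.53 (adjusted p = 5.7e-41), and the cysteine protease CTSB was at -1.05. The tripeptidyl peptidase TPP1 (-0.99), the dipeptidyl peptidase CTSC (-0.83) and the carboxypeptidase CTSZ (-0.78) were lower by less than 2-fold. CTSL, the other widely expressed cysteine protease, was at 0.00 (adjusted p = 0.987). CTSH (-0.39, adjusted p = 0.0828) was not called, nor was CTSS, an enzyme of antigen-presenting cells, despite a value of -1.07 (adjusted p = 0.346).

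Exons of CTSA overlap those of NEURL2 and PLTP on the opposite strand in GENCODE release 29, and no source used here says whether reads were counted by strand. PLTP was lower as well (-1.12, adjusted p = 4.06e-08) and NEURL2 was not called (-0.68, adjusted p = 0.138). LIPA overlaps IFIT2 on the opposite strand, which was also lower (-1.58, adjusted p = 5.88e-07). How far shared reads enter these values was not tested.

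Glycosidases remove sugars from glycoproteins, glycolipids and glycogen. They were the most divided of the enzymes, with 6 of 10 lower and 2 higher, against 27.9% and 29.7% of all tested genes. The mannosidase MAN2B1 (-1.76, adjusted p = 5.9e-34) and the beta-galactosidase GLB1 (-1.67, adjusted p = 4.12e-34), which forms a complex with CTSA, were lowest in the authors' deposited table. The fucosidase FUCA1 (-1.42) and GAA, the glycogen-degrading glucosidase (-1.18, adjusted p = 1.68e-26), were also more than 2-fold lower. HEXA, which acts on the ganglioside GM2, was slightly lower (-0.48, adjusted p = 0.00206), as was the beta-mannosidase MANBA (-0.31). NAGLU, which removes N-acetylglucosamine from heparan sulfate (0.71, adjusted p = 8.39e-09), and the galactosidase GLA (0.56, adjusted p = 1.1e-05) were the hydrolases called higher. The beta-glucuronidase GUSB (0.00) and the iduronidase IDUA (-0.17) were not called.

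Enzymes of heparan sulfate breakdown went different ways: NAGLU was higher, the sulfatase SGSH lower (-0.80), and IDUA and the sulfatase IDS (0.09, adjusted p = 0.549) were not called. The other sulfatases were lower, ARSA by 4.19-fold (-2.07, adjusted p = 3.52e-18) and ARSB by 2.48-fold (-1.31, adjusted p = 1.63e-22). ARSA removes sulfate from sulfatide, a myelin lipid, and ARSB from dermatan sulfate.

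All 4 lipid enzymes were lower, against 27.9% of all tested genes. LIPA, the acid lipase that frees cholesterol from its esters, was 4.96-fold lower (-2.31, adjusted p = 5.78e-52). The acid ceramidase ASAH1 (-1.58, adjusted p = 1.67e-39) and the palmitoyl-protein thioesterase PPT1 (-1.02) were more than 2-fold lower. The acid sphingomyelinase SMPD1 was at -0.34 (adjusted p = 0.0121).

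PSAP, the precursor of the saposins that present lipids to these enzymes, and GRN, the precursor of the granulins, were both lower. GRN had the lowest log2 fold change of all 63 genes (-2.53, 5.76-fold lower, adjusted p = 1.33e-124 in the authors' deposited table; chromosome 17, from 44345086) and the 22nd smallest p among the 4453 genes called lower. PSAP was 2.70-fold lower (-1.43, adjusted p = 6.64e-71).

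**Figure D2:**
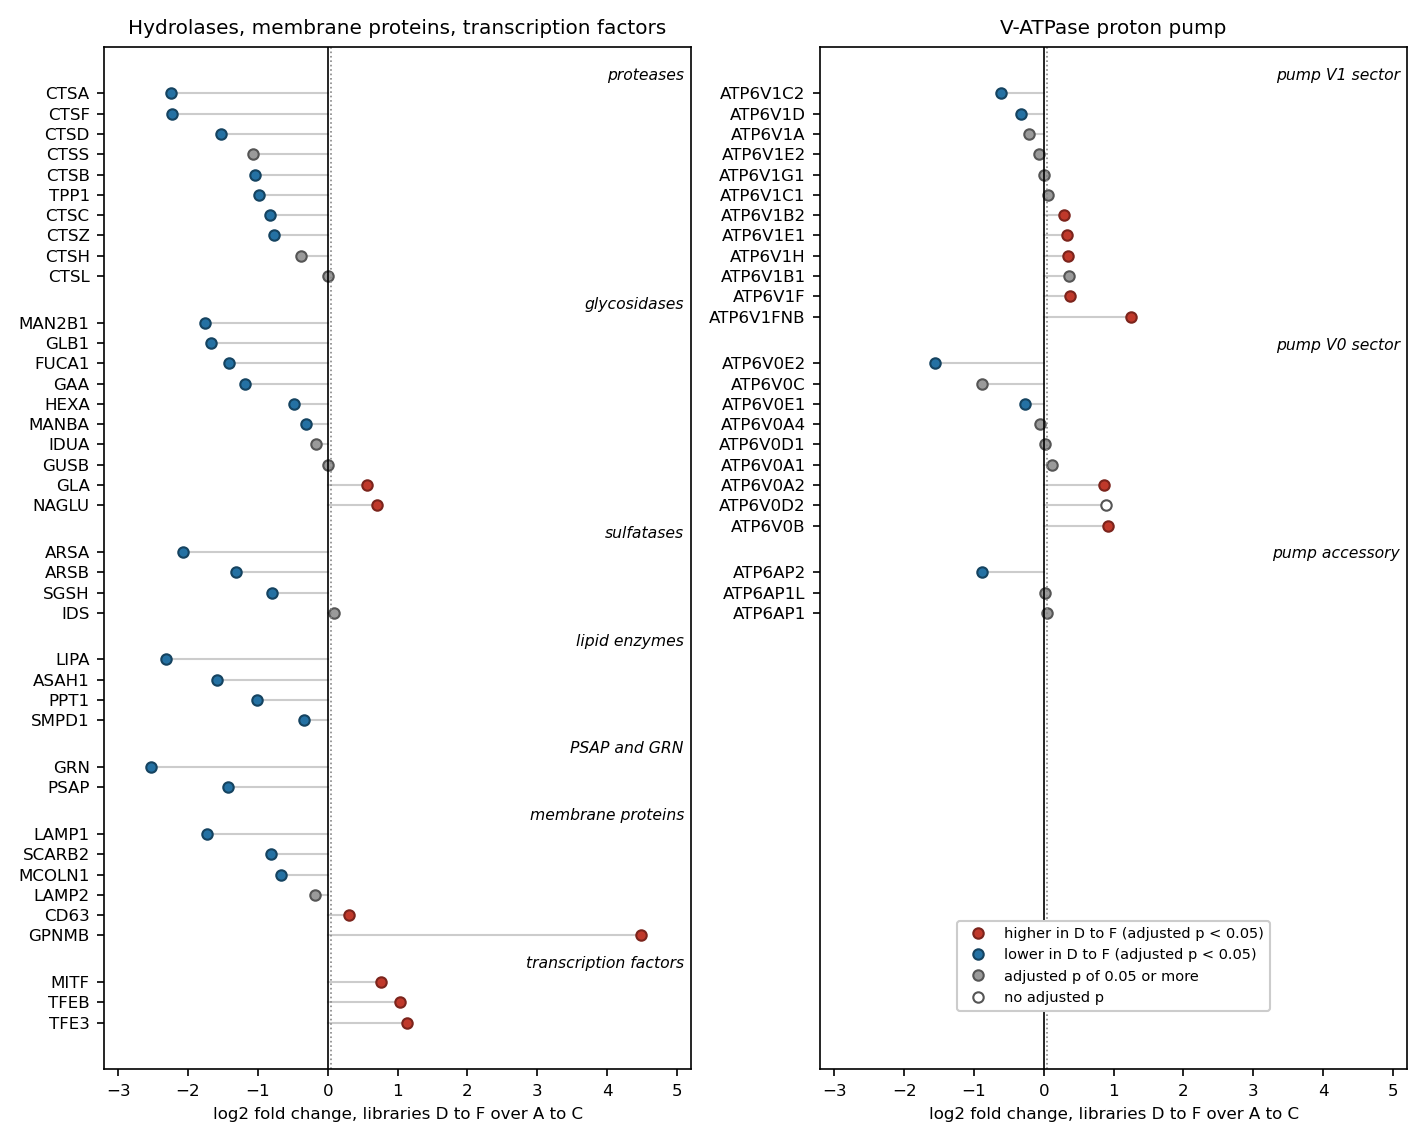
Log2 fold change (D to F over A to C) of each of the 63 genes, by class, with the pump in the right panel; colour gives the call and the dotted line the median of all tested genes (0.05). Most enzymes lie left of 0, the 3 transcription factors lie right of it, and most pump genes lie close to it.

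Of the membrane proteins, 3 of 6 were lower and 2 higher, against 27.9% and 29.7% of all tested genes. LAMP1, the most common glycoprotein of the lysosomal membrane, was 3.31-fold lower (-1.73, adjusted p = 4.7e-71), whereas its relative LAMP2 was not called (-0.19, adjusted p = 0.0905). SCARB2, the receptor that carries glucocerebrosidase to lysosomes (-0.81, adjusted p = 3.26e-18), and the calcium channel MCOLN1 (-0.67) were lower. Exons of MCOLN1 overlap those of PNPLA6 on the same strand, which was lower too (-1.32). The tetraspanin CD63 was slightly higher (0.30, adjusted p = 0.0035). GPNMB, a glycoprotein of melanosomes and lysosomes, stood apart at 22.4-fold higher (4.48, adjusted p = 2.3e-106; chromosome 7, from 23235967).

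GPNMB is also abundant in macrophages. Of 5 macrophage markers with a value, CD163 was called higher (4.23) and none lower. CD68 was at 0.09, and CSF1R (2.02), MRC1 (5.05) and MARCO (-0.96) were not called. Their levels were not used, and their part in the GPNMB value was not tested.

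TFE3 (2.20-fold, 1.14 on the log2 scale, adjusted p = 1.24e-26), TFEB (2.05-fold, 1.04, adjusted p = 1.55e-10) and MITF (1.69-fold, 0.76, adjusted p = 3.29e-06) were all higher in the authors' deposited table. The mRNAs of the 3 factors and those of most hydrolases thus differed in opposite directions. These factors are known to be controlled largely by phosphorylation and by movement into the nucleus, which mRNA does not measure.

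The proton pump did not share the pattern of the hydrolases. Of 23 pump genes with an adjusted p, 7 were higher (29.7% of all tested genes were), 5 lower (against 27.9%) and 11 not called, shares close to those of the whole table. The median was 0.02 beside 0.05 for all tested genes. At least 2-fold, ATP6V0E2 was the 1 pump gene lower and ATP6V1FNB, which is not a subunit, the 1 higher. These are 1 of 23 each way, below the 11.3% lower and 12.8% higher of all tested genes at that cut. Without ATP6V1FNB, 0 pump genes were higher by that much. TCIRG1, a subunit gene outside the symbol prefix and so not counted here, was also lower by more than 2-fold (-1.17). For comparison, 13 of 28 hydrolases were lower at least 2-fold. The difference between the classes is given as counts and medians only and was not tested.

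**Figure D3:**
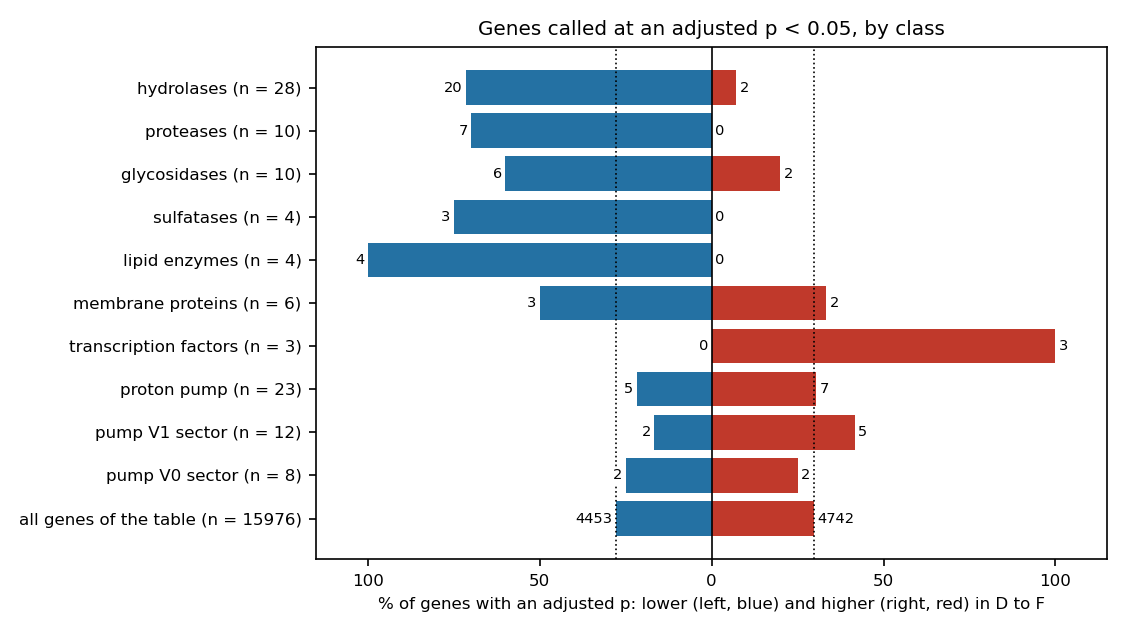
Percent of genes with an adjusted p that were called lower (left) and higher (right) in D to F, by class, with the number of genes at each bar; dotted lines mark the shares of all tested genes (27.9% and 29.7%). Hydrolase classes exceed the left line, with 20 of 28 lower in all, and the pump stays near both lines.

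In the V1 sector, which splits ATP, changes were small. ATP6V1F (0.38, adjusted p = 0.000858), ATP6V1H (0.34), ATP6V1E1 (0.33) and ATP6V1B2 (0.30), which encode subunits F, H, E and B, were higher by less than 1.5-fold. ATP6V1D, for a subunit of the central stalk, was lower (-0.33, adjusted p = 0.0183). The catalytic subunit gene ATP6V1A was not called (-0.22, adjusted p = 0.104), nor was ATP6V1G1 (0.01). The neighbour gene ATP6V1FNB had the largest value of the group (1.26, adjusted p = 4.19e-05). Its exons do not overlap those of ATP6V1F in GENCODE release 29. Without it 6 of 22 tested pump genes were higher.

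The V0 sector, which holds the proton path, held the larger changes. ATP6V0B, for a proteolipid of the rotor ring, was 1.89-fold higher (0.92, adjusted p = 1.18e-21), and ATP6V0A2 was 1.82-fold higher (0.86, adjusted p = 1.04e-19). ATP6V0E2 was 2.95-fold lower (-1.56, adjusted p = 5.81e-47). ATP6V0C, for the main proteolipid of the ring, was listed at -0.89 but was not called (adjusted p = 0.583). Its exons overlap those of 2 other coding gene models on the same strand. ATP6V0D1 (0.02) was not called. ATP6V0D2 was left without an adjusted p, and 377 genes share the fold change listed for it, which is therefore not printed.

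Several subunits are encoded by paralogs of broad or tissue-limited use, and paralogs of 1 subunit differed. For subunit a, which places the pump in different membranes, ATP6V0A2 was higher, ATP6V0A1 (0.12) and ATP6V0A4 (-0.05) were not called, and TCIRG1, which encodes the a3 form and lies outside the symbol prefix, was 2.25-fold lower (-1.17). For subunit e, ATP6V0E2 was lower, and ATP6V0E1 only slightly so (-0.27, adjusted p = 0.0406). For subunit C, ATP6V1C2 was lower (-0.61, adjusted p = 0.0182) and ATP6V1C1 not called (0.06). For subunit B, ATP6V1B2 was called higher, while ATP6V1B1, the form of acid-secreting cells, had a like value (0.36, adjusted p = 0.085) without being called. For subunit E, ATP6V1E1 was higher and ATP6V1E2 was not called (-0.07).

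Among accessory proteins, ATP6AP2, also known as the prorenin receptor, was 1.84-fold lower (-0.88, adjusted p = 2.26e-13), and ATP6AP1 (0.04) and ATP6AP1L (0.02) were not called. Of 11 genes of pump assembly and regulation, 5 were lower and 1 higher, against 27.9% and 29.7% of all tested genes. The 5 include TCIRG1, which encodes a subunit rather than an assembly factor. It is counted in this list and not among the pump genes. ROGDI (-2.26), of the complex that joins V1 to V0, TCIRG1, and CCDC115 (-1.26), an assembly factor, were lower. NCOA7 (1.04), which binds the pump, was higher.

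Of 31 further hydrolases and cofactors 19 were lower and 5 higher in the authors' deposited table, with a median of -0.87. Of all tested genes, 27.9% were lower and 29.7% higher. GM2A, the activator protein for breakdown of the ganglioside GM2, was 16.8-fold lower (-4.07), and the nucleases PLD3 (-1.67) and DNASE2 (-1.78) were lower. The phospholipase PLA2G15 (0.83) and the peptidase TPP2 (0.42), which is cytosolic, were higher.

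Genes that deliver enzymes to lysosomes were lower in 14 of 22 cases and higher in 3, against 27.9% and 29.7% of all tested genes. SORL1 (-1.53) and SORT1 (-0.96), sorting receptors, and GNPTAB (-1.30) were lower, and the adaptor subunits AP3S1 (0.56) and AP3D1 (0.36) and the retromer subunit VPS26A (0.32) were higher. GNPTAB belongs to the pathway that builds the mannose 6-phosphate tag; its partner GNPTG (-1.56) and the uncovering enzyme NAGPA (-1.85), named after their values were seen, were lower too. Of the receptors for this tag, likewise named after their values were seen, IGF2R was lower (-0.48) and M6PR was not called (-0.11).

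Of other membrane proteins, 14 of 30 were lower and 7 higher, against 27.9% and 29.7% of all tested genes. TMEM192 (1.14), PIP4P1 (1.18) and OSTM1 (0.83), the partner of the chloride transporter CLCN7, were higher. MCOLN2 (-1.27), the lipid transporter ABCA2 (-1.18) and the arginine sensor SLC38A9 (-1.23) were lower. Of 21 genes of mTORC1 at the lysosome and of TFEB control, 9 were higher (42.9%) and 7 lower (33.3%), with a median of 0.05. FNIP1 (1.37), RRAGC (0.92) and RRAGD (0.71) were higher, as was FLCN (0.74), named after its value was seen. FNIP1 and FLCN act together on the Rag GTPases RRAGC and RRAGD. Their relatives, also named after their values were seen, did not share this: RRAGA was lower (-0.35), and FNIP2 (-0.08) and RRAGB (0.05) were not called. MLST8 (-0.97), LAMTOR1 (-0.60) and YWHAB (-0.67), a 14-3-3 protein, were lower.

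**Figure D4:**
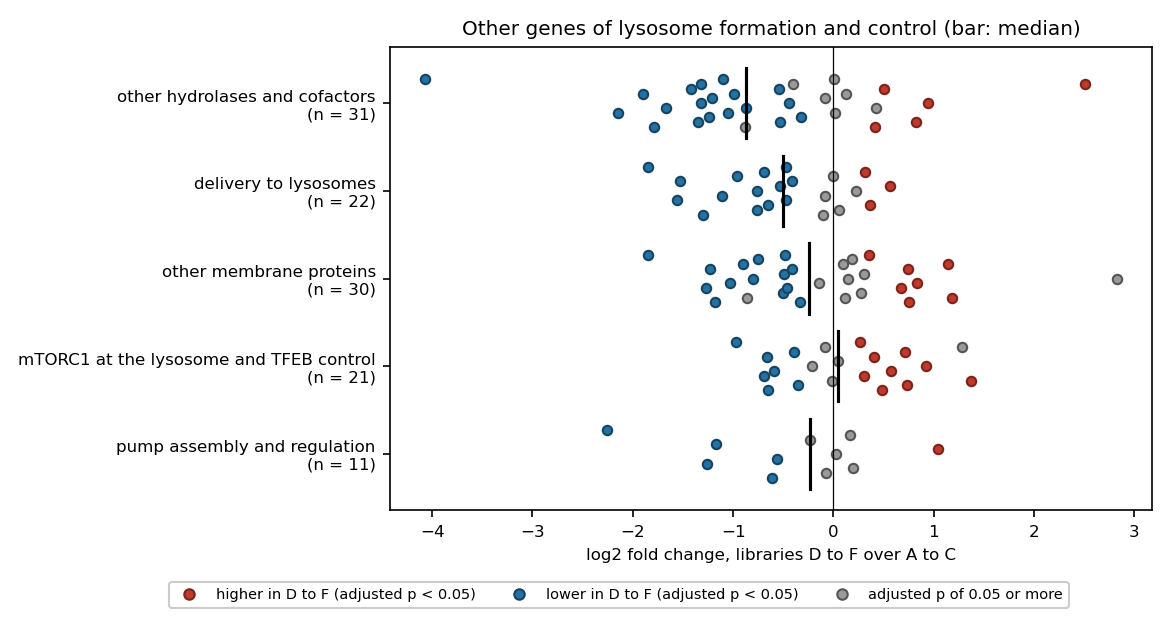
Log2 fold change (D to F over A to C) of the other genes of lysosome formation and control that had an adjusted p, by list; each point is a gene, colour gives the call and the black bar the median. The lists of other hydrolases and of delivery lie mostly left of 0 (19 of 31 and 14 of 22 lower, against 27.9% of all tested genes). The mTORC1 and TFEB list is centred near 0 (median 0.05).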

How the data were processed

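RNA of 6 H1048 samples was sequenced as paired ends. Per the submitters' processing notes, hg38 was the build, and DESeq2, HTSeq, STAR and Trimmomatic were among the tools. Their versions, the annotation, the strand setting and any shrinkage are not given in the sources used. The authors deposited, per the file headers, for each gene the log2 fold change with its p-value, raw and adjusted. The 36 columns of values per library were not used, since no label ties a library to a sample; depth and a count model are therefore not given.

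The 977 genes with an adjusted p of exactly 1 were treated as having none; the other adjusted values matched a Benjamini-Hochberg adjustment over 15976 genes. Calls used an adjusted p under 0.05. The adjustment was tested on simulated data. Members and lists were chosen with earlier results of these data known. Every member with an adjusted p could be named, and of each other list the 3 smallest p in each direction, with exceptions stated; 1 gene so chosen is not reported here. Coordinates are GENCODE release 29 (GRCh38), 1-based; promoters are RefSeq, GRCh38.p14. Tools were Python 3.11.15, pandas 2.3.3 and numpy 2.4.6.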

Additional observations from a re-analysis of the deposited data

How the results depend on the processing

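Centring the fold changes on the median of tested genes (0.05), or adjusting over every gene with a p-value, changed no call among the 63 genes. Centring turned the sign of 6 uncalled genes near 0 (ATP6AP1, ATP6AP1L, ATP6V0D1, ATP6V1G1, CTSL and GUSB) and moved the medians of the pump and of the mTORC1 and TFEB control list below 0, to -0.0223 and -0.0006. At an adjusted p under 0.01, 5 genes lost their call, and 2 pump genes were lower in place of 5, while all 7 higher pump genes kept theirs. Under a Holm adjustment 13 lost it, leaving 2 pump genes higher and 2 lower. Asking for at least 2-fold left 13 hydrolases lower and 0 higher, and 1 pump gene higher (ATP6V1FNB, without which the count is 0) and 1 lower. At that cut 11.3% of all tested genes were lower and 12.8% higher. Adding TCIRG1, leaving out the accessory proteins or, chosen after seeing the data, leaving out ATP6V1FNB moved the pump's median by less than 0.1. The counts at an adjusted p under 0.05 moved by less than 1.5 times. The 2-fold counts were not redone with TCIRG1, which was itself 2.25-fold lower (-1.17). Small changes, as in most V1 genes, rest on the threshold to differing degrees. ATP6V1C2 and ATP6V1D lost their call at an adjusted p under 0.01. ATP6V1F, ATP6V1H, ATP6V1E1 and ATP6V1B2 kept it there and lost it under the Holm adjustment and at 2-fold. No paired analysis was possible because no label ties a library to a sample and its replicate number; for the same reason left-out replicates, other normalizations and low-count filters were not run. No standard errors or depths were used, so the precision of a single fold change is known only through its p.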

Other observations

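Exons of 18 of the 63 genes overlap those of another coding gene in GENCODE release 29. Where the partner had a value and is not given above, the called partners were TMPPE (-1.46) beside GLB1, CAP1 (-0.65) beside PPT1, SLC26A1 (-1.21) beside IDUA, RHOQ (-0.74) beside ATP6V1E2, EIF2S1 (1.05) beside ATP6V1D and VAX2 (0.56) beside ATP6V1B1. ATP6V1D was lower while its partner on the opposite strand was higher. These are log2 fold changes of D to F over A to C in the authors' deposited table.

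Cell type genes are given as values, beside 57.6% of all tested genes called. Among 5 tuft cell genes POU2F3 and AVIL were lower, GFI1B was higher (0.54), and TRPM5 (0.78) and CHAT (-0.43) were not called. Among 3 neuroendocrine genes with an adjusted p SYP (2.51) and INSM1 (1.81) were higher. Of 4 fibroblast genes with an adjusted p, COL1A1 (-0.57), PDGFRB (-1.86) and LUM (-4.22) were lower.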
